A study of Homo sapiens with 8 samples.

Results

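The potassium channel genes were the rows of the deposited expression table whose gene symbol was KCN, 1 or more further letters and a closing number, which left out antisense and pseudogene names. The rule found 95 genes among the 58735 of the table, all annotated as protein coding. Of these, 79 encode pore-forming or pore-modifying alpha subunits and 16 encode auxiliary subunits. The question set for them was which were silent, which were gained and which were lost under treatment, and how the rest moved.

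RNA was sequenced from LN229, an established human glioblastoma cell line. The 4 combination samples were treated for 48 h with bortezomib, a proteasome inhibitor, at 7.5 nM together with panobinostat, an inhibitor of histone deacetylases, at 15 nM. The 4 DMSO samples received the solvent for the same time, although 1 label field gives them as untreated. Brain tissue is named in the extraction protocol, while the other fields of every sample name the cell line. Neither drug was given alone, so the parts of the 2 drugs cannot be told apart, and all samples come from 1 line. Whether the 4 samples of a group were separate cultures is not in the labels, so every p-value measures only how far these samples scatter, and that scatter may be technical.

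Potassium channels let potassium leave or enter the cell and so set its resting voltage, shape electrical firing and take part in volume control. Pore-forming subunits fall into voltage-gated families (KCNA, KCNB, KCNC, KCND, KCNH, KCNQ), modifier subunits that carry no current alone and join KCNB channels (KCNF, KCNG, KCNS, KCNV), calcium- or sodium-activated channels (KCNM, KCNN, KCNT, KCNU), inward rectifiers (KCNJ) and the tandem-pore background channels (KCNK). Auxiliary subunits (KCNAB, KCNE, KCNIP, KCNMB) change the gating or surface level of pore-forming ones. In astrocytes inward rectifiers and tandem-pore channels hold the resting voltage, and the calcium-activated channel KCNN4 is known from work on the migration of glioma cells.

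Values are FPKM, reads scaled by gene length and library size, as the authors deposited them. Read numbers were recovered from these values, and totals ran from 15189251 to 17324292 per sample. In these libraries 3 reads on a gene of 1 kb stand for 0.172 to 0.197 FPKM. The mitochondrial share of reads was 11.7% to 15.1% in the combination samples and 4.31% to 6.69% in DMSO. Protein-coding genes with at least 3 reads made up 75.7% to 76.9% of all in the combination samples and 70.2% to 70.8% in DMSO. Throughout, ± is the SD over the 4 samples of a group for levels in FPKM and the SE for log2 differences, and values are listed in the order of replicates 1 to 4. The part of the mitochondrial share or of the detected share in the results that follow was not tested.

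Panels of marker genes showed what kind of RNA the libraries held. The glioma and astroglial panel (8 genes) summed to 245 to 261 FPKM in the combination samples and 866 to 893 FPKM in DMSO. Of its 8 genes 6 were lower, SOX9 was higher (0.721 ± 0.117 against 0.1198 ± 0.0333 FPKM) and CD44 did not pass (54.8 against 53.1 FPKM). The astrocyte filament gene GFAP was near 0 in both groups (0.0414 ± 0.0236 FPKM against 0.220 ± 0.00415, SD, n = 4). The neuron panel (8 genes) summed to 43.7 to 45.7 FPKM in the combination samples and 23.1 to 24.4 in DMSO, with 5 of 8 genes higher and 2 lower. The oligodendrocyte panel (5 genes) summed to 39.0 to 41.2 against 310 to 352 FPKM, with 1 of 4 tested genes higher and 3 lower. Endothelial (3 genes, 0.905 to 1.10 against 0.146 to 0.242 FPKM), leukocyte (4 genes, 0.717 to 1.47 against 0.235 to 0.596 FPKM) and fibroblast or pericyte panels (3 genes, 5.47 to 6.19 against 1.98 to 2.32 FPKM) were low in both groups, and the leukocyte gene AIF1 had 0 reads. In bulk RNA, fewer cells of a type and less RNA per cell cannot be told apart.

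The promoters of 6 channel genes are shown because the results turn on them: KCNK3, KCNH2 and KCNJ2 among the genes that rose, KCNK5 and KCNN4 among those that fell, and KCNA3, which had no read in any sample. Each line holds the 250 bases before the RefSeq start in GRCh38.p14, 5′ to 3′ on the gene's strand, with matches to the GC box (GGGCGG on either strand) in capitals. The windows lie at chr2:26692472-26692721 on the plus strand for KCNK3, chr7:150978322-150978571 on the minus strand for KCNH2, chr17:70169282-70169531 on the plus strand for KCNJ2, chr6:39229476-39229725 on the minus strand for KCNK5, chr19:43780974-43781223 on the minus strand for KCNN4 and chr1:110674941-110675190 on the minus strand for KCNA3. The RefSeq start lay 859 bases from the table's gene start for KCNJ2 and 288 bases from it for KCNN4, and under 100 bases from it for the other 4. The KCNN4 window lies wholly inside the gene as the table places it, downstream of the table's gene start.
KCNK3: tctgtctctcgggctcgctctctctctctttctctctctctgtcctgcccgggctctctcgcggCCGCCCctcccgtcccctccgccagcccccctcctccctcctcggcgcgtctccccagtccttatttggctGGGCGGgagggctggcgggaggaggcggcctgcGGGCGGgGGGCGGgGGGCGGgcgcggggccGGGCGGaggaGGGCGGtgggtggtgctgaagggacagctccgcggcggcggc
KCNH2: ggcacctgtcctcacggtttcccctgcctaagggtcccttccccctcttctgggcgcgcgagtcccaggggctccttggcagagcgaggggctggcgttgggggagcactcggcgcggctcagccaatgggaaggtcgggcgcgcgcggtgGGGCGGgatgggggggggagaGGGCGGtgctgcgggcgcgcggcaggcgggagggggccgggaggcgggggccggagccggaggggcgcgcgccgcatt
KCNJ2: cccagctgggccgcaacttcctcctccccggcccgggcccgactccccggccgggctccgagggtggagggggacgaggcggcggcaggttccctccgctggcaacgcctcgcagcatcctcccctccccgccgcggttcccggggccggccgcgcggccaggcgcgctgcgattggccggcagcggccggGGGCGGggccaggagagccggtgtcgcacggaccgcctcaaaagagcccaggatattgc
KCNK5: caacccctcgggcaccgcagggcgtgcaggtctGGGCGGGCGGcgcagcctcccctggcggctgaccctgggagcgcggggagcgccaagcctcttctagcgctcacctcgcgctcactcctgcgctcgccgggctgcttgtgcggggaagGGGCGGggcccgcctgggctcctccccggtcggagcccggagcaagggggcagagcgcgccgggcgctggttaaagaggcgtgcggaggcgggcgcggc
KCNN4: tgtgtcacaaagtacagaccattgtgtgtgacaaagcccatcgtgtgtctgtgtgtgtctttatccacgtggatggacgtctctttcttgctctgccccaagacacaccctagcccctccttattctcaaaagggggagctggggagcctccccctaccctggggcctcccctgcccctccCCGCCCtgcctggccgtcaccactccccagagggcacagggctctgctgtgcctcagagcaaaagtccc
KCNA3: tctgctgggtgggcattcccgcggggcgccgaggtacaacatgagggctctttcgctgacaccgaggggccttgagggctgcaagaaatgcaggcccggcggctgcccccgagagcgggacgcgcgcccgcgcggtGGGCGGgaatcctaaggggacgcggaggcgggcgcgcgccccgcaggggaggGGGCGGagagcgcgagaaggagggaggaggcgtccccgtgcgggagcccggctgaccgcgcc

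The KCNK3 window held 7 GC boxes, KCNK5 3, KCNH2 and KCNA3 2 each, and KCNJ2 and KCNN4 1 each. KCNN4 had the lowest CpG content of the 6, an observed over expected ratio of 0.231, while the silent KCNA3 had the highest, 0.973. The KCNN4 ratio is that of a window inside the table's gene. Promoters were found for 71 of the 95 genes. For some the RefSeq start lay far from the table's gene start, such as KCNG2 (65730 bases), KCNIP3 (49354) and KCNJ6 (204888). Which start these cells use was not tested. A GC box was present in 7 of 8 promoters of genes that rose (87.5%), 9 of 11 of genes that fell (81.8%), 9 of 13 of tested genes without a call (69.2%) and 3 of 15 of silent genes (20%), beside 57.2% of 14906 protein-coding promoters of the same length. The median CpG ratio was 0.74 in the promoters of genes that rose, 0.79 in those of genes that fell and 0.36 in those of silent genes, against 0.74 over all. The GC box was therefore about as frequent in the promoters of genes that rose as in those of genes that fell. The CCAAT box was found in 3 of 8, 3 of 11 and 5 of 15 of these groups, with 34.5% over all.

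Both parts of the element bound by the neuronal repressor REST were also searched on both strands, TTCAGCACC and GGACAGC, which do not overlap each other. The first was in 0.275% of all promoters and in 2 of the 71 channel promoters, KCNK3, which rose, and KCNH6, which had too few reads for a test. GGACAGC was in both of these as well, in 1 of 8 promoters of genes that rose, in 2 of 11 of genes that fell and in 5.24% over all. In the KCNK3 window it began at base 220 as the reverse complement, and GGACAGC began at base 230 as written, so the 2 parts pointed in opposite directions. The AP-1 element TGANTCA was in 3 of the 71 channel promoters (4.23%), those of KCNJ4, KCNJ15 and KCNJ16, with 4.96% over all. The RefSeq starts of these windows lay 11171, 116959 and 21796 bases from the table's gene starts. None of these 3 genes had enough reads for the test on FPKM, while KCNJ4 was gained. A match is only a run of letters, and no match says nothing about the factor.

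Silent genes came first in the account of what these cells express. A gene counted as detected in a sample at 3 or more reads, and 18 of the 95 channel genes (18.9%) were below that in all 8 samples. By the same rule 16.1% of 19951 protein-coding genes and 50.2% of all genes in the table were silent, so the share of channel genes was near that of protein-coding genes. The 18 were KCNA1, KCNA3, KCNA5, KCNA6, KCNA10, KCNB2, KCNC2, KCNE3, KCNIP1, KCNJ1, KCNJ6, KCNJ18, KCNK4, KCNK16, KCNK17, KCNK18, KCNMB2 and KCNU1. They included 7 of 17 Kv1 to Kv4 genes, 4 of 15 tandem-pore genes, 3 of 16 inward rectifiers and 3 of 16 auxiliary subunits, and none of the KCNH, KCNQ or modifier genes.

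Among the silent genes, 6 had no read in any library: KCNA3, KCNA5, KCNA6, KCNA10, KCNJ18 and KCNK17. KCNA3 encodes Kv1.3 of lymphocytes, KCNA5 an atrial channel and KCNK17 an alkaline-activated tandem-pore channel. The other 12 had at least 1 read somewhere. For KCNA6 100% of the exon length is shared with GALNT8 on the same strand, and for KCNK4 61.9% is shared with the read-through gene KCNK4-TEX40, so their reads may have been assigned elsewhere. KCNJ18 is nearly identical to KCNJ12, and their reads cannot be told apart with certainty.

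More channel genes were detected per library under the combination. The 4 combination samples held 62, 64, 64 and 66 detected channel genes, and the 4 DMSO samples 52, 51, 44 and 55. All combination samples lay above all DMSO samples, with means of 64 and 50.5. As shares of all channel genes these were 65.3% to 69.5% and 46.3% to 57.9%. Over protein-coding genes the shares were 75.7% to 76.9% and 70.2% to 70.8%, also higher under the combination. The count at 1 FPKM or more differed less, 15 to 17 channel genes per combination sample and 14 to 16 per DMSO sample. Detection in all 8 samples was seen for 32 channel genes, in every combination sample but only some DMSO samples for 17, in every DMSO sample but only some combination samples for 4, and in a scatter of samples for 19. The shares of these patterns over all genes were not counted, so these numbers are not set against a background.

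**Figure D1:**
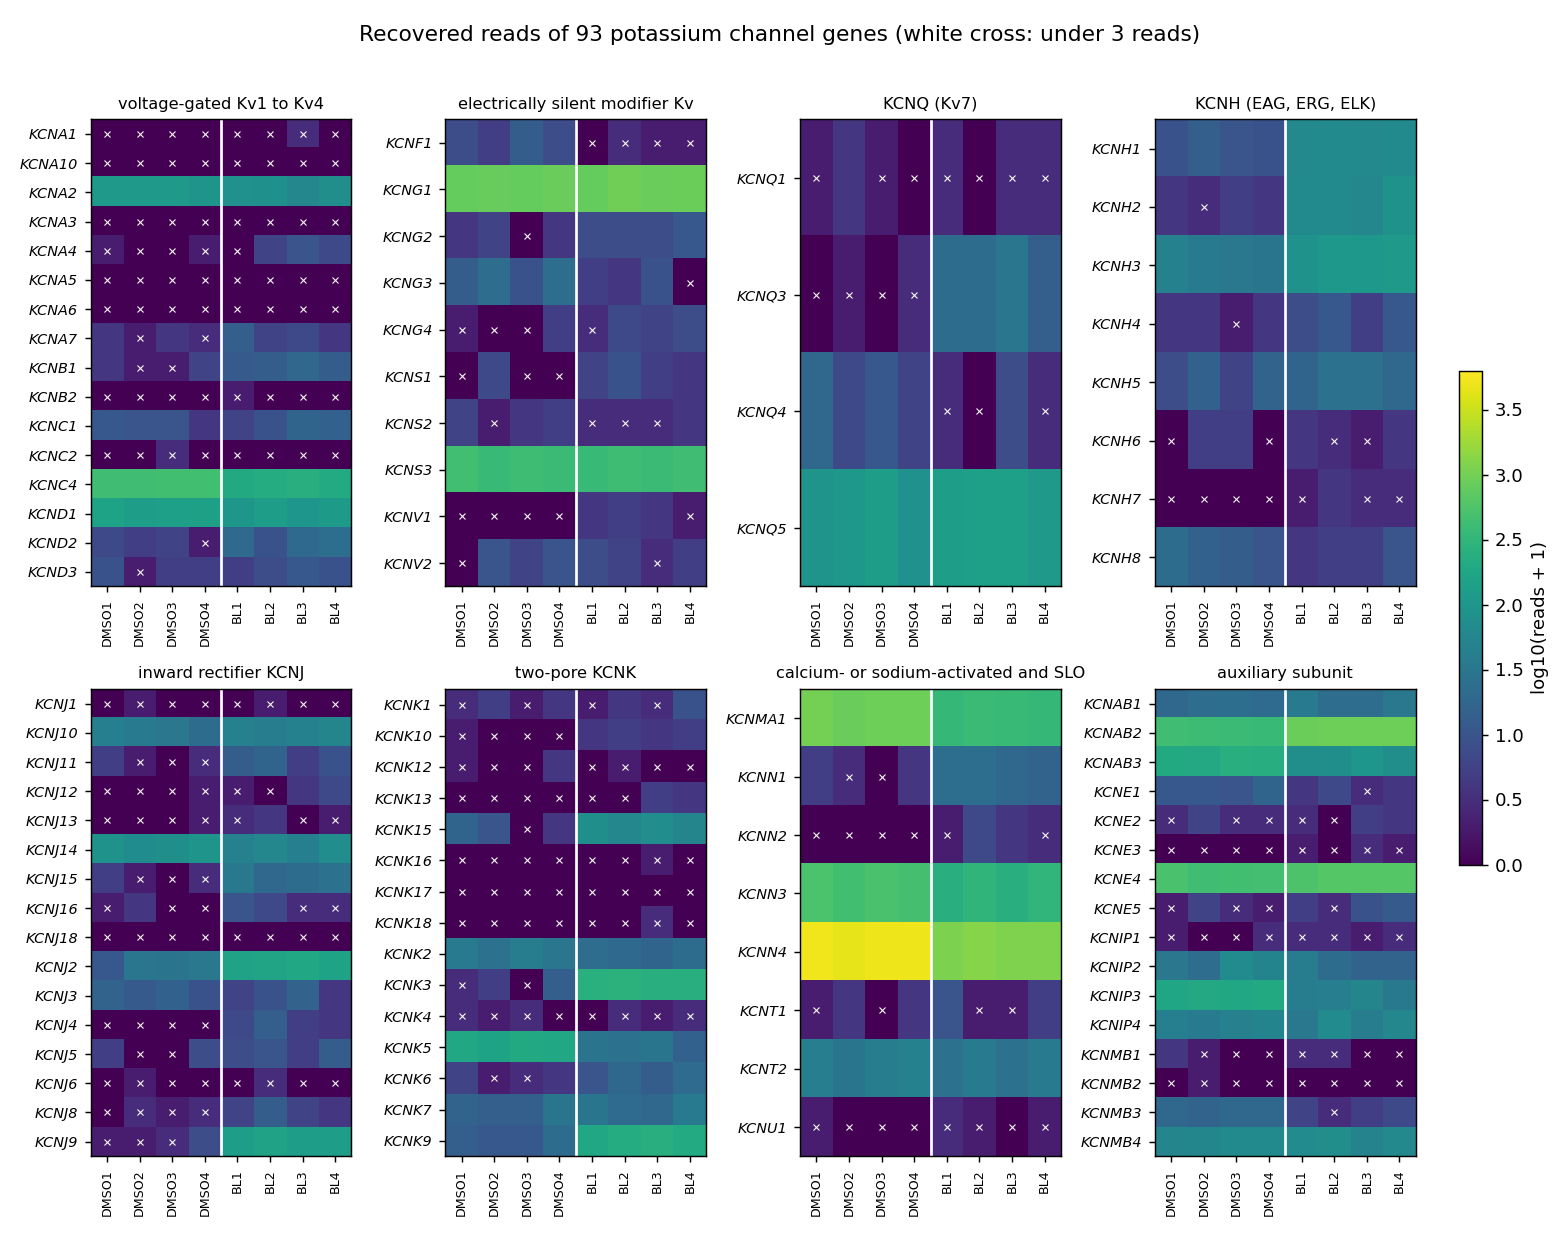
Recovered reads of 93 potassium channel genes in each of the 8 samples, on a color scale of log10(reads + 1), with genes as lines, samples as columns and 1 panel per family. White crosses mark fewer than 3 reads: the 18 silent genes carry them in all 8 columns, and KCNJ4, KCNJ8, KCNK10 and KCNQ3 in the 4 DMSO columns.

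Gained genes, under 3 reads in every DMSO sample and at 3 or more in every combination sample, numbered 4 of 95 (4.21%), beside 2.59% of protein-coding genes and 1.51% of all genes. KCNJ4, an inward rectifier of neurons and heart (Kir2.3), had 6, 13, 4 and 3 reads in the combination samples and 0 in each of the 4 DMSO samples. It was at least 8.77-fold higher, against a floor of 3 reads over the DMSO group. KCNJ8, the pore of a channel gated by ATP (Kir6.1), had 5, 12, 5 and 3 reads against 0, 2, 1 and 2.

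KCNK10, a tandem-pore channel opened by stretch and fatty acids (TREK-2), had 3, 4, 3 and 4 reads against 1, 0, 0 and 0, the lowest counts among the gained genes. KCNQ3, a subunit of neuronal M-current channels, had 21, 21, 30 and 13 reads against 0, 1, 0 and 2. That read counts did not overlap between groups for any of the 4 follows from the definition of a gained gene. Reads were too few for the FPKM test, which requires a mean of 0.1 FPKM. KCNQ3 had enough for limma voom on the recovered reads and was higher there by 4.38 on the log2 scale (adjusted p = 1.9e-06). That test used the reads that defined the gene as gained, so its direction was set in advance. The gained count fell to 1 when reads were scaled to the smallest library, and rose to 13 when 3 of 4 samples per group were enough.

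Lost genes numbered 1 of 95 (1.05%), with 0.236% of protein-coding genes and 0.252% of all genes beside it. KCNF1 (Kv5.1), a modifier subunit, had 7, 4, 12 and 7 reads in the DMSO samples and 0, 2, 1 and 1 in the combination samples. The definition of a lost gene itself keeps the read counts of the groups apart, and counts were low throughout. The level of KCNF1 fell by 1.21 ± 0.32 (SE) on the log2(FPKM + 0.1) scale (limma adjusted p = 0.0108). KCNF1 passed the filter for this test only through DMSO, with a combination mean of 0.0266 FPKM. The test used the values that defined the gene as lost, so its direction was set in advance. No gene was lost at a floor of 5 reads, and without combination sample 3 there were 2 lost genes.

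A test was possible for the 42 channel genes that averaged 0.1 FPKM or more across the 8 samples. A gene could pass this filter through its higher group alone. The test was limma on log2(FPKM + 0.1), two-sided, with Benjamini-Hochberg adjustment over all 24144 tested genes. A fold on this scale understates the change of low genes. Of the 42, 15 rose (35.7%, beside 30.8% of all tested genes) and 12 fell (28.6%, beside 27.3%). The other 15 did not pass. The median difference of the 42 was 0.13 on the log2(FPKM + 0.1) scale, against 0.06 over all tested genes. Both shares were near the background, so the channel genes moved in both directions about as often as genes at large.

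The change reached 2-fold for 13 of those that rose and 7 of those that fell, without a count over all tested genes to set beside it. Groups did not overlap for 15 of the 42 with the combination higher (35.7%, beside 28.5% of all tested genes) and 11 with it lower (26.2%, beside 25.7%). With voom on recovered reads 53 channel genes were tested, of which 23 were higher (43.4%, beside 35.1% of all tested genes) and 17 lower (32.1%, beside 37.8%). With a pseudocount of 1 and a mean of 1 FPKM or more, 8 of 15 were higher (53.3%, beside 36.9%) and 6 lower (40%, beside 41%). All main calls but that of KCNF1, which voom did not test, kept their direction and call there. At a mean of 1 FPKM or more stood 14 channel genes in DMSO and 17 in the combination, with 9 in both. The levels crossed 1 FPKM upwards for 8 genes and downwards for 5. Levels at 1 FPKM were not counted over all genes, so no skew of the channel genes can be read from these numbers.

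**Figure D2:**
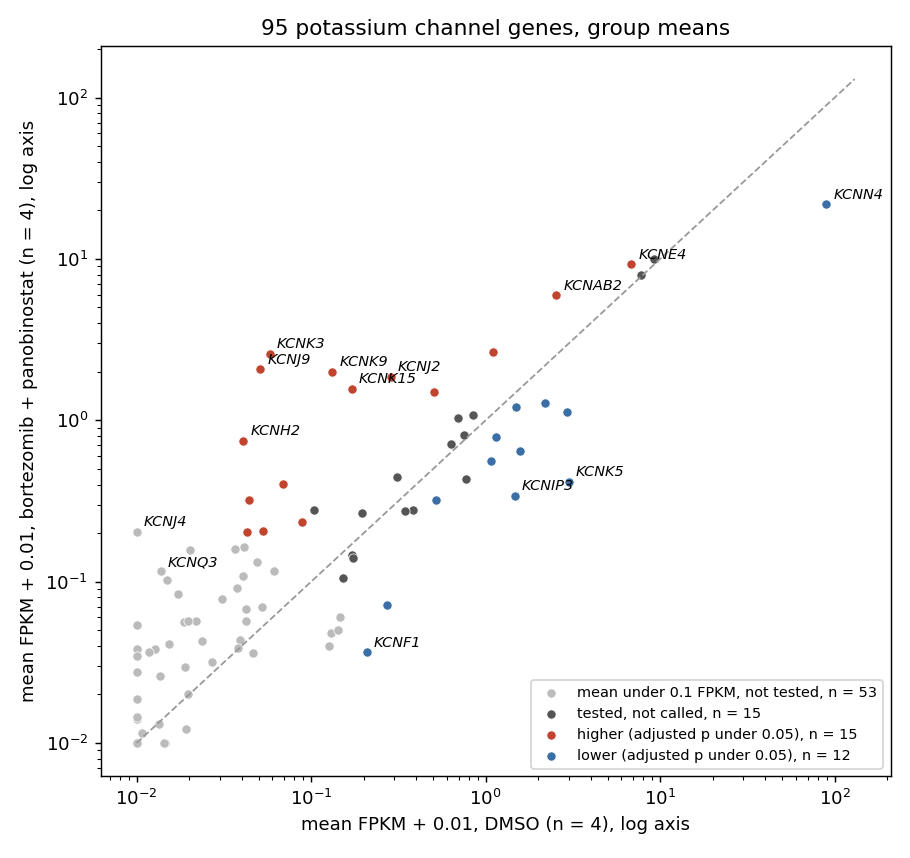
Mean FPKM of the 95 potassium channel genes in the combination samples (vertical) and the DMSO samples (horizontal), each the mean of 4 samples with 0.01 added, on log axes; colors give the result of the test and the dashed line marks equal levels. KCNK3 and KCNJ9 lie farthest above the dashed line, and KCNK5 is the farthest below it among genes at 1 FPKM or more in either group.

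Tandem-pore KCNK genes held both the largest rise and the largest fall on the log2(FPKM + 0.1) scale among channel genes that passed the test. Of 6 tested genes 3 were higher and 2 lower, beside 30.8% and 27.3% of all tested genes. KCNK3 passed the filter only through the combination samples, with a DMSO mean of 0.0478 FPKM. The sum of the family was 8.22 ± 0.482 FPKM in the combination samples and 4.61 ± 0.535 in DMSO. KCNK3 (TASK-1), an acid-sensitive background channel, stood at 2.67, 2.61, 2.49 and 2.53 FPKM in the combination samples and at 0.0185, 0.0403, 0 and 0.132 FPKM in DMSO. Its DMSO libraries held 2, 4, 0 and 13 reads, so the gene went from the edge of detection to a level among the 10 highest channel genes. The difference was 4.25 ± 0.26 (SE) on the log2(FPKM + 0.1) scale (limma adjusted p = 9.28e-07). The gene lies at chr2:26692690-26733420 on the plus strand.

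KCNK9 (TASK-3), the closest relative of KCNK3, stood at 1.82, 1.93, 2.32 and 1.9 FPKM against 0.11, 0.0924, 0.0883 and 0.196 FPKM in DMSO. The lowest combination sample was far above the highest DMSO sample. The difference was 3.26 ± 0.19 (limma adjusted p = 7.14e-07). KCNK15 (TASK-5), a relative that gives no current when expressed alone, stood at 1.94, 1.28, 1.75 and 1.27 FPKM against 0.354, 0.217, 0 and 0.0731 FPKM. Groups were again separate, with a difference of 2.87 ± 0.45 (limma adjusted p = 0.000454). Of its exon length 21.7% lies opposite RIMS4 and KCNK15-AS1, and the sources used here do not state whether counting used strand.

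KCNK5 (TASK-2), an alkaline-activated channel with a role in volume control, went the other way. It stood at 2.89, 2.64, 3.24 and 3.14 FPKM in DMSO and at 0.489, 0.405, 0.496 and 0.233 FPKM in the combination samples. No sample of either group came near the other. The gene fell by 2.64 ± 0.19 (limma adjusted p = 3.16e-06), with a mean 7.34 times higher in DMSO. It was 5th among channel genes in DMSO by mean FPKM. KCNK2 (TREK-1), a stretch-activated channel, also fell (−0.55, limma adjusted p = 0.036), from 0.401 to 0.613 FPKM in DMSO to 0.263 to 0.369 FPKM. Its adjusted p ran from 0.0575 to 0.0882 without any 1 of combination samples 2 and 3 and DMSO samples 1, 3 and 4.

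Inward rectifiers of the KCNJ family summed to 6.11 ± 0.165 FPKM in the combination samples and 2.03 ± 0.191 in DMSO. Of 6 tested genes 3 were higher and 1 lower, beside 30.8% and 27.3% of all tested genes. KCNJ9 and KCNJ11 passed the filter only through the combination samples, with DMSO means of 0.0410 and 0.0327 FPKM. The count of higher genes is therefore partly set by the filter. KCNJ9 (Kir3.3), a G-protein-gated subunit of neurons, stood at 2.08, 2.13, 2.08 and 1.95 FPKM against 0.0138, 0.015, 0.0287 and 0.106 FPKM. The 4 DMSO libraries held 1, 1, 2 and 7 reads of it. The difference was 3.98 ± 0.23 (limma adjusted p = 5.76e-07). Its partner KCNJ3 (Kir3.1) did not pass (−0.36, limma adjusted p = 0.376), and KCNJ6 (Kir3.2) was silent.

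KCNJ2 (Kir2.1), a strong inward rectifier that holds the resting voltage, stood at 1.82, 1.73, 2.07 and 1.8 FPKM against 0.103, 0.337, 0.301 and 0.363 FPKM. The groups were far apart, with a difference of 2.45 ± 0.26 (limma adjusted p = 4.01e-05). KCNJ11 (Kir6.2), the ATP-gated pore of beta cells and muscle, was higher by 1.11 (limma adjusted p = 0.0256), at 0.0801 to 0.292 FPKM against 0 to 0.0718 FPKM. Without DMSO sample 3 its adjusted p was 0.0531. KCNJ10 (Kir4.1), the main inward rectifier of glia, had 0.356 to 0.494 FPKM in the combination samples and 0.202 to 0.376 FPKM in DMSO. The ranges overlapped and the gene did not pass (0.44, limma adjusted p = 0.117).

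KCNJ14 (Kir2.4) was lower (−0.51, limma adjusted p = 0.0264), at 0.621 to 1.04 FPKM against 1.01 to 1.33 FPKM. Its ranges overlapped, and its exons overlap other genes (10.9% on the same strand, 16.5% on the opposite strand). Without any 1 of combination samples 1, 2 and 3 and DMSO samples 1 and 4 its adjusted p ran from 0.0558 to 0.0727.

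Of the 8 voltage-gated channels of the KCNH family, 3 passed the filter for the test on FPKM, and these 3 rose, with 30.8% of all tested genes beside them. KCNH1 and KCNH2 passed it only through the combination samples, with DMSO means of 0.0591 and 0.0309 FPKM. That all 3 rose is therefore partly set by the filter. The sum of the family was 2.96 ± 0.285 FPKM against 0.841 ± 0.1205. KCNH8 (ELK1), too low for that test, went the other way, with 3, 4, 4 and 9 reads in the combination samples and 21, 14, 12 and 9 in DMSO. It was lower by voom (−1.48, adjusted p = 0.00539), while KCNH4 and KCNH5 were higher by voom (1.44, adjusted p = 0.025, and 1.11, adjusted p = 0.0105). KCNH3 (ELK2), a channel of forebrain neurons, stood at 1.35, 1.43, 1.58 and 1.61 FPKM against 0.61, 0.505, 0.442 and 0.423 FPKM in DMSO. The groups were separate, with a difference of 1.43 ± 0.14 (limma adjusted p = 2.26e-05). The other KCNH genes named here lie outside the rule for genes given in full and were chosen after their values were seen.

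KCNH2 (HERG), the channel that repolarizes the heart, stood at 0.726, 0.647, 0.623 and 0.956 FPKM against 0.0294, 0.0213, 0.0408 and 0.0323 FPKM. All combination samples were far above all DMSO samples, by 2.66 ± 0.22 (limma adjusted p = 8.31e-06). KCNH1 (EAG1), a channel known for its presence in tumours, stood at 0.408, 0.37, 0.393 and 0.407 FPKM against 0.0469, 0.083, 0.0549 and 0.0516 FPKM. Its difference was 1.64 (limma adjusted p = 0.000196). Other genes overlap 16.1% of its exon length on the same strand and 36.9% on the opposite strand.

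Among Kv1 to Kv4 channels, 2 of 5 tested genes were higher and 2 lower, and the sums were 5.17 ± 0.429 FPKM and 4.17 ± 0.129 FPKM. KCNC4 (Kv3.4), a fast-inactivating channel, stood at 1, 1.07, 1.07 and 1.13 FPKM in DMSO and at 0.535, 0.516, 0.618 and 0.531 FPKM in the combination samples. Groups did not overlap, and the gene fell by 0.85 ± 0.12 (limma adjusted p = 0.000262).

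KCND2 (Kv4.2), the fast A-type channel of dendrites, was higher by 1.02 (limma adjusted p = 0.0241), at 0.0842 to 0.258 FPKM against 0.0114 to 0.0621 FPKM. KCND1 (Kv4.1) stood at 1.14, 1.37, 1.07 and 1.24 FPKM against 1.55, 1.38, 1.43 and 1.55 FPKM in DMSO. The highest combination sample lay just under the lowest DMSO sample. It fell by 0.28 ± 0.10 (limma adjusted p = 0.0447). This call was lost without any 1 of combination samples 1, 3 and 4 and DMSO samples 1, 3 and 4, with adjusted p from 0.0647 to 0.1002.

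KCNQ genes (Kv7), which include the M-current channels, had 1 of 5 tested, KCNQ5, at 1.14, 1.07, 1.17 and 0.915 FPKM against 0.699, 0.886, 1.04 and 0.703 FPKM. The ranges overlapped and the difference of 0.34 did not pass (limma adjusted p = 0.0888).

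Modifier subunits included KCNG1 and KCNS3, 2 of the 4 highest channel genes in both groups. KCNG1 (Kv6.1) stood at 9.62, 10.3, 9.92 and 10.1 FPKM in the combination samples and at 8.5, 9.45, 8.92 and 9.78 FPKM in DMSO. The ranges overlapped, and the gene did not pass (0.12, limma adjusted p = 0.059). KCNS3 (Kv9.3) had 7.69 to 8.43 FPKM against 7.24 to 8.06 FPKM and did not pass (0.04, limma adjusted p = 0.541), and its sign turned with voom (−0.03). The sums of the modifiers were 18.6 ± 0.476 and 17.7 ± 0.660 FPKM. KCNG2 was higher by 0.93 (limma adjusted p = 0.0409) and KCNG3 lower by 1.15 (−1.15, limma adjusted p = 0.0312), both below 0.4 FPKM in every sample. Leaving out 1 sample took away the KCNG2 call for combination samples 1, 3 and 4 and DMSO samples 1, 3 and 4 (adjusted p from 0.0527 to 0.0744), and the KCNG3 call for samples 2 and 4 of either group (0.0572 to 0.0749).

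Calcium- and sodium-activated channels summed to 93.2 ± 3.36 FPKM in DMSO and 24.3 ± 0.244 FPKM in the combination samples, with 3 of 5 tested genes lower and 1 higher. KCNN4 (KCa3.1), the intermediate-conductance channel at chr19:43766533-43781261 on the minus strand, stood at 89.4, 84.9, 89.4 and 92.5 FPKM in DMSO and at 21.5, 21.8, 22.2 and 21.5 FPKM in the combination samples. The samples of each group lay close together and far from the other group. It fell by 2.03 ± 0.03 (limma adjusted p = 3.65e-10), with a mean 4.09 times higher in DMSO. It was the highest channel gene in both groups.

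KCNN3 (SK3), a small-conductance channel, stood at 2.27, 2.03, 2.22 and 2.23 FPKM in DMSO and at 1.19, 1.32, 1.12 and 1.43 FPKM in the combination samples. Groups were separate, and the gene fell by 0.75 ± 0.10 (limma adjusted p = 0.000135). KCNMA1, the pore of the large-conductance BK channel, stood at 1.61, 1.48, 1.54 and 1.62 FPKM in DMSO and at 0.628, 0.643, 0.668 and 0.594 FPKM in the combination samples. It fell by 1.18 ± 0.10 (limma adjusted p = 8.06e-06), again with no overlap.

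KCNN1 (SK1), chosen after its values were seen, rose within this family. It stood at 0.379, 0.338, 0.29 and 0.235 FPKM against 0.0578, 0.0315, 0 and 0.0477 FPKM in DMSO. The difference was 1.62 (limma adjusted p = 0.000896), although the gene stayed far below KCNN3 and KCNN4 per length.

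KCNN4 carried most of the channel total in DMSO. Summed over the 95 genes, the level was 140 ± 5.05 FPKM in DMSO and 86.0 ± 1.58 FPKM in the combination samples. KCNN4 was 63.2% to 64.2% of that sum in DMSO and 24.7% to 25.8% in the combination samples. Without KCNN4 the order of the groups turned, at 51.0 ± 2.08 FPKM in DMSO and 64.3 ± 1.47 FPKM in the combination samples.

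**Figure D3:**
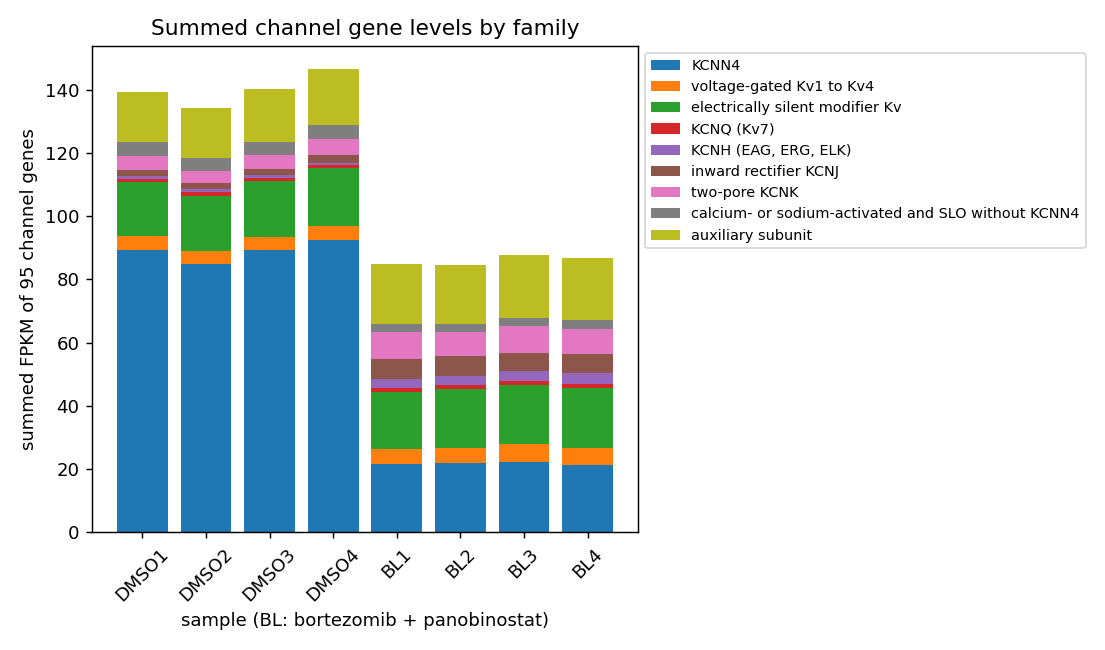
Summed FPKM of the potassium channel genes in each sample, in stacked bars for KCNN4 and 8 families (the calcium- or sodium-activated family without KCNN4). KCNN4 is the largest part of every DMSO bar and 24.7% to 25.8% of every combination bar.

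Auxiliary subunits had 2 of 10 tested genes higher and 2 lower, with sums of 19.4 ± 0.723 and 16.5 ± 0.845 FPKM. KCNAB2 and KCNAB3, cytoplasmic beta subunits of Kv1 channels with an aldo-keto reductase fold, moved in opposite directions. KCNAB2 stood at 6.02, 5.65, 6.15 and 5.92 FPKM against 2.55, 2.63, 2.45 and 2.46 FPKM in DMSO, a difference of 1.20 ± 0.05 (limma adjusted p = 7.79e-08). KCNAB3 stood at 1.06, 0.996, 1.39 and 1.02 FPKM against 2.57, 2.67, 3.16 and 3.22 FPKM, and fell by 1.31 ± 0.13 (limma adjusted p = 2.02e-05). Neither gene had overlapping groups.

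KCNE4, a single-pass subunit that inhibits several Kv channels, stood at 8.73, 8.95, 9.73 and 9.64 FPKM against 7.18, 6.49, 6.43 and 7.11 FPKM. The rise was small but beyond the spread, 0.44 ± 0.06 (limma adjusted p = 0.000126). KCNIP3, a calcium sensor of Kv4 channels also known as the repressor DREAM, stood at 1.23, 1.55, 1.42 and 1.63 FPKM in DMSO and at 0.333, 0.305, 0.424 and 0.262 FPKM in the combination samples. It fell by 1.86 ± 0.16 (limma adjusted p = 1.08e-05) without overlap.

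**Figure D4:**
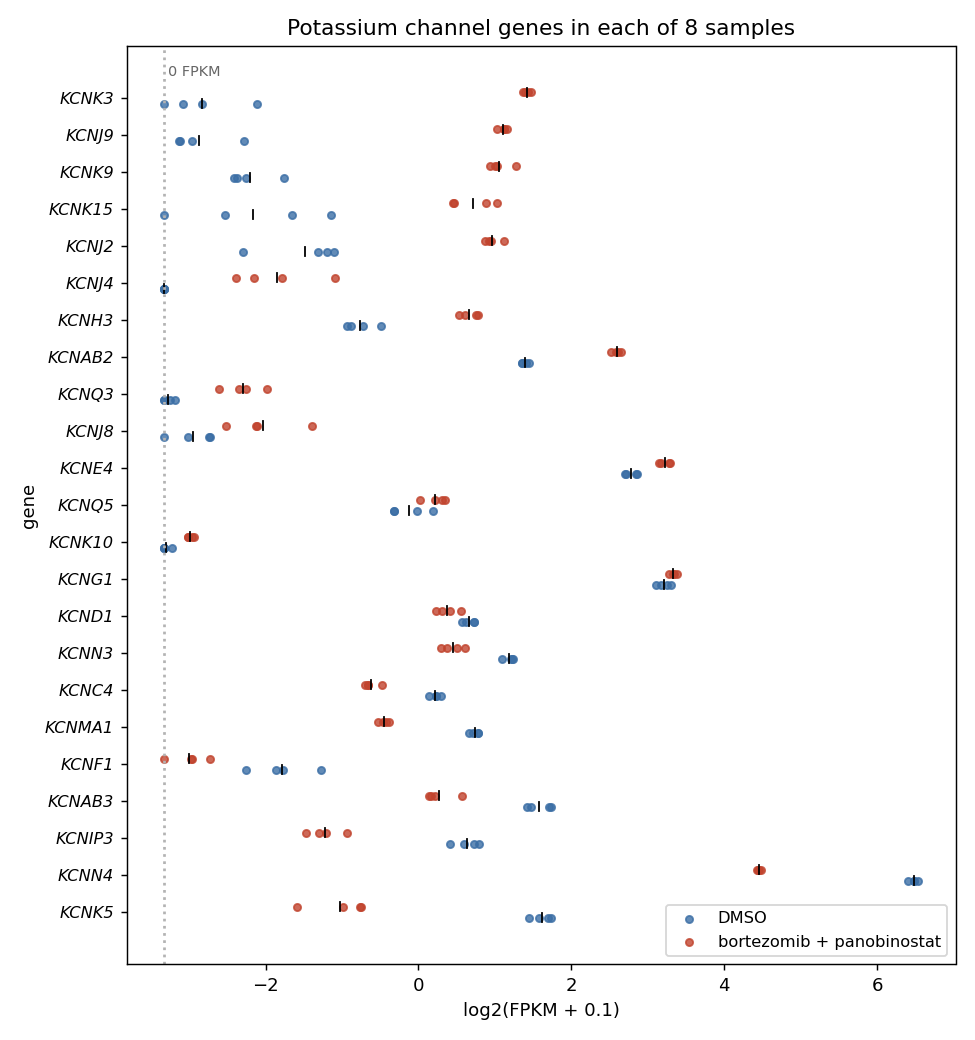
FPKM of the named potassium channel genes in each of the 8 samples as log2(FPKM + 0.1), where each point is 1 sample, the short black line is the mean of the 4 log2 values and the dotted line is 0 FPKM. KCNK3, KCNJ9 and KCNK9 are above 1 FPKM in every combination sample and below 0.2 FPKM in every DMSO sample.

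By mean level the 10 highest channel genes in DMSO were, in order, KCNN4, KCNG1, KCNS3, KCNE4, KCNK5, KCNAB3, KCNAB2, KCNN3, KCNMA1 and KCND1. In the combination samples KCNN4, KCNG1, KCNE4, KCNS3 and KCNAB2 led, and KCNK3, KCNJ9, KCNK9 and KCNJ2 were among the 10 highest. KCNN4 and KCNG1 held the same places in both. KCNK5, KCNAB3, KCNN3, KCNMA1 and KCND1 were no longer among them.

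Genes that work beside these channels were taken from lists, with counts by the same limma test. A list of partner subunits and related genes with names outside the rule had 4 of 11 tested genes higher and 2 lower, with a median of −0.05. The 4 higher genes were HCN2, HCN4, TMEM175 and KCTD12. HCN2, HCN4 and TMEM175 are channels themselves, not partner subunits. In this list KCTD12, a subunit of GABA-B receptor complexes, was at 5.95 ± 0.417 FPKM against 2.90 ± 0.119 FPKM, and the calmodulin gene CALM3 at 35.3 ± 1.26 against 55.7 ± 1.51 FPKM. The sodium-potassium pump and its FXYD regulators, which build the gradient the channels use, had 9 of 11 tested genes higher and 2 lower, with a median of 1.66, beside 30.8% higher, 27.3% lower and a median of 0.06 over all tested genes. The beta subunit ATP1B1 was at 147 ± 4.76 FPKM against 46.4 ± 1.47 FPKM, a difference of 1.66 (limma adjusted p = 1.29e-09). FXYD3 was lower, 0.0984 ± 0.0523 against 0.705 ± 0.249 FPKM (limma adjusted p = 0.000481).

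Cation-chloride cotransporters and their kinases had 4 of 10 tested genes higher and 5 lower, with a median of −0.08. SLC12A8 was at 5.19 ± 0.152 FPKM against 0.581 ± 0.0453 FPKM, and the potassium-chloride cotransporter SLC12A7 at 1.57 ± 0.223 against 8.56 ± 0.659 FPKM. The REST repressor complex, which keeps neuronal genes such as many ion channels off in other cells, had 2 of 15 tested genes higher and 10 lower, with a median of −0.42, beside the same 30.8%, 27.3% and 0.06 over all tested genes. REST itself fell slightly, 4.33 ± 0.261 against 5.16 ± 0.305 FPKM (−0.25, limma adjusted p = 0.00736). HMG20B, a subunit of the complex, was at 45.1 ± 2.50 against 148 ± 6.32 FPKM, and the demethylase KDM1A was higher, 37.3 ± 1.57 against 27.4 ± 0.903 FPKM.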

How the data were processed

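RNA from LN229 glioblastoma cells was sequenced in 4 combination-treated and 4 DMSO samples. Per the file headers, the authors deposited FPKM values for each gene and sample in a single table that also gives coordinates and exon lengths. Bowtie 0.12.2, mm8 and GRCh37 are named in the submitters' processing notes, with no role for either build. The counting tool and its use of strand are not given in the sources used here. All 58735 gene identifiers, coordinates and exon lengths equal those of GENCODE release 29 on GRCh38, so coordinates are GRCh38.

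FPKM multiplied by length was a whole multiple of 1 step per column (100% of nonzero values within 0.02), which gave back reads. The main test was limma 3.58.1 in R 4.3.3 with trend moderation; it used log2(FPKM + 0.1) of the 24144 genes averaging 0.1 FPKM or more, with Benjamini-Hochberg adjustment and a threshold of 0.05. A gene was detected at 3 reads, a floor that covers counting error only. Genes given in full were the gained and lost genes, called genes without overlap whose higher group mean was at least 1 FPKM, and the highest gene of each family; others are said to be chosen after seeing values. Members and lists were chosen with earlier results of these data known. Alternatives were other scalings, pseudocounts, filters and floors, limma voom on recovered reads (mean of at least 5 reads), a block for the replicate numbers, and each sample left out in turn. The model was tested on simulated data. Promoters came from RefSeq (GRCh38.p14), matched by symbol, taking the entry nearest the table's gene start. Channel proteins were not used here, and results for a few genes are not reported here. Python 3.11.15 was used for the rest.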

Additional observations from a re-analysis of the deposited data

Results flagged for a closer look

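In 3 of the 56 groups of 4 samples checked, 1 sample stood apart by a gap to its nearest neighbour that exceeded Dixon's critical share of the group's whole range, where chance gives about 1 in 20. KCNAB3 in the combination samples had a gap of 0.836 of the range, with sample 3 at 1.39 FPKM and the others at 0.996 to 1.06 FPKM. KCNJ9 in DMSO had a gap of 0.839, with sample 4 at 0.106 FPKM and the others at 0.0138 to 0.0287 FPKM. KCNK10 in DMSO had a gap of 1, since sample 1 held its 1 read and the others held 0. DMSO sample 4 also held 13 of the 19 DMSO reads of KCNK3. The calls of KCNAB3 and KCNJ9 held without any 1 of the 8 samples.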

How the results depend on the processing

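The direction of each channel gene that passed the test was kept under every alternative that tested it. Among named genes that did not pass, KCNS3 turned, from 0.04 to −0.03 with voom. For the genes given in full by rule, 367 values under alternatives stayed on the same side of the threshold, 10 gained a call (KCNG1 8 times, KCNQ5 2 times) and 10 lost one, all of KCND1. Outside that rule, KCNG2, KCNK2, KCNJ14, KCNG3, KCND2 and KCNJ11 each lost their call under at least 2 alternatives, and KCNS3 gained one with quantile normalization. Across channel genes 12 of 15 higher calls and 8 of 12 lower calls held in every setting that tested them. Quantile normalization took away the calls of KCND2 (adjusted p = 0.409), KCNJ11 (0.263) and KCNG2 (0.318).

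Against 15 higher and 12 lower channel genes, a filter at 1 FPKM gave 8 and 6, as did pseudocount 1 with that filter, and voom gave 23 higher. Leaving out 1 sample gave 14 to 16 higher and 8 to 11 lower. Samples with the same replicate number had low correlations in their deviations from the group means (0.00386, 0.0716, −0.0352 and 0.0695). Low correlations cannot settle whether samples were prepared in pairs. The replicate block gave 15 higher and 9 lower.

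Against 18 silent, 4 gained and 1 lost, a floor of 1 read gave 6 silent and 0 lost, 5 reads 0 lost, 10 reads 38 silent and 7 gained, and 0.1 FPKM 34 silent and 2 lost. Scaling to the smallest library gave 1 gained, and 3 of 4 samples 13 gained and 3 lost. Leaving out 1 sample gave 18 to 20 silent, 4 to 6 gained and 1 to 2 lost. The difference of 13.5 detected genes per library became 9.75 at 10 reads and 10 at 0.1 FPKM, and 11.3 to 15 without 1 sample.

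For the lists, REST higher was 1 with library totals and 4 with quantile normalization (main 2), cotransporters lower 3 with upper-quartile or quantile (main 5), partners lower 5 with voom (main 2), and the pump 4 higher and 1 lower at a filter of 1 FPKM with either pseudocount (main 9 and 2). The cause of these shifts was not tested, apart from the fewer genes tested under the filters. Scaling moved the median of all genes by −0.0587 to 0.0822. Below about 0.2 FPKM, read depth limits what can be seen.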

Other observations

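Transcripts named after channel genes but outside the rule numbered 23, most of them antisense RNAs, and 4 are given here, chosen after their values were seen. KCNJ2-AS1, antisense to KCNJ2, was at 1.62 ± 0.303 FPKM (SD, n = 4) in the combination samples and 0.137 ± 0.0348 FPKM in DMSO, a difference of 2.85 (limma adjusted p = 2.08e-06). KCNK15-AS1 was at 0.657 ± 0.219 against 0.0235 ± 0.0469 FPKM (2.64, limma adjusted p = 0.00014), and KCNH1-IT1, an intronic transcript of KCNH1, at 1.82 ± 0.654 against 0.332 ± 0.245 FPKM (2.37, limma adjusted p = 0.00709). All 3 host genes rose as well, and without strand their reads cannot be told apart where exons overlap. KCNQ1OT1, the long imprinted RNA within KCNQ1, was lower, at 0.123 ± 0.0204 against 0.692 ± 0.0325 FPKM (−1.83, limma adjusted p = 2.58e-05).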
